A study of Mus musculus with 34 samples.

Results

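The 32 genes described here are interferon-stimulated genes, a list fixed by name, of 23109 genes with a value in the RNA-Seq of immortalized brown preadipocytes. Each gene was represented by its RefSeq transcript with the highest mean RPKM (read counts divided by transcript length and library depth) over 14 libraries, and each condition had 1 library. No difference between conditions therefore has a replicate check, and no test across conditions was made. All cells were brown preadipocytes isolated from newborn mice and immortalized with SV40T, and the labels give a C57BL/6J background and floxed alleles of the glucocorticoid receptor gene (GR-flox/flox). The labels' protocol speaks of infection with an empty or a Cre retrovirus and does not say which of them these 14 libraries carried, and the methods describe cells of WT mice. The adipogenesis libraries came from cells with a puromycin-selected retrovirus (pQCXIP) expressing FLAG-tagged WT or K36M H3.3, where K36M is a lysine-to-methionine change of the histone that lowers H3K36 methylation, and they were collected at D0, D2, and D7. Confluent cells were induced for 2 days with insulin, T3, IBMX, dexamethasone, and indomethacin, and later medium held insulin and T3. The Rosi libraries came from the same WT and K36M cells with a second, hygromycin-selected retrovirus for PPARγ, sub-confluent and given DMSO or the PPARγ ligand rosiglitazone (Rosi) for 24 h. The labels give DMSO as time 0 and the methods give 24 h for both, so whether the time in culture also differed is unsure. The knockdown libraries came from cells with a lentiviral control shRNA (Ctrl) or an shRNA against the H3K36 methyltransferase Nsd2 (Nsd2 KD), collected at D0 and D2.

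Mapped reads ranged from 12213559 to 24365867 per library. *Nsd2* itself read 19.9 and 5.85 RPKM in Ctrl and Nsd2 KD cells at D0, and 29.0 and 7.01 at D2. The mesenchymal markers *Pdgfrb* and *Col1a1* were present in all 14 libraries (5.88 to 124 and 13.7 to 1678 RPKM). The adipocyte marker *Fabp4* was higher at D2 than at D0 in WT cells (3249 against 37.6 RPKM), while the brown fat markers *Ucp1* and *Cidea* did not pass 0.194 and 0.0973 RPKM in any library, D7 included. Among the 9 macrophage and leukocyte markers found, the defining genes *Ptprc*, *Adgre1*, and *Itgam* stayed at or below 0.0391, 0.0759, and 0.0351 RPKM, and the list summed to between 0.455 and 8.28 RPKM, with *Cd14* its highest member in all libraries but PPARγ K36M DMSO, where *Csf1r* was. Summed levels follow the most abundant members of a list. In WT D2 *Fabp4* made up 3249 of the 3567 RPKM of the 7 brown adipocyte markers. In Ctrl D0 *Col1a1* made up 1678 of the 2017 RPKM of the 9 preadipocyte and mesenchymal markers. The 2 PPARγ K36M libraries had 25720 and 25882 transcripts above 0, more than the 20931 to 23935 of the other 12. In bulk RNA, fewer cells with a high level and less RNA per cell cannot be told apart.

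Type I interferons bind the receptor of IFNAR1 and IFNAR2, whose kinases JAK1 and TYK2 pass the signal on by phosphorylation. STAT2 and IRF9 are subunits of the complex ISGF3, which binds interferon-stimulated response elements before the genes described here. Many of them encode antiviral proteins, some encode the sensors and transcription factors that raise interferon production again, and some, such as *Usp18*, limit the signal. Fibroblast-like cells express many of these genes at a basal level without added interferon. The 32 genes were grouped by role as transcription regulators, nucleic acid sensors, the 2′-5′ oligoadenylate synthetase (OAS) family, the IFIT family, the ISG15 system, restriction factors, guanylate-binding proteins, and others.

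Several of the genes lie side by side (mm9, GENCODE M1 annotation). *Ifit2*, *Ifit3*, and *Ifit1* follow each other on chromosome 19, with *Ifit3* from 34658021 to 34663221 and gaps of 7.11 and 52.1 kb. *Rsad2* and *Cmpk2* are 12.8 kb apart on chromosome 12, *Gbp3* and *Gbp2* are 47.4 kb apart on chromosome 3, and *Mx1* and *Mx2* are 73.2 kb apart on chromosome 16. *Isg15* lies on chromosome 4 from 155573533 to 155574927, and *Irf7* on chromosome 7 from 148448605 to 148452380. The IFIT, OAS, GBP, and IFITM genes have close paralogs, and the sources used here do not say how reads shared by near-identical copies were counted, so the levels of *Ifit3*, *Oas1a*, *Gbp2*, *Gbp3*, and *Ifitm3* are uncertain to that extent. *Mx1* and *Mx2* are represented by non-coding RefSeq transcripts.

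RefSeq promoter windows (GRCm38.p6) were at hand for 24 of the 32 genes. The windows of *Usp18*, *Zbp1*, *Mx1*, *Mx2*, *Dhx58*, *Parp14*, *Rtp4*, and *Oas2* were not used here. The core of the response element, GAAANNGAAA on either strand with overlapping matches counted, was found in the 250 bases before the start site of 9 of the 24 genes (37.5%), against 3.04% of 27025 genes with a window of the same length. The gamma-activated site core, TTCNNNGAA, was found in 6 of the 24 genes (*Irf1*, *Ifit2*, *Oas1a*, *Bst2*, *Eif2ak2*, and *Samhd1*), against 7.18% of all. A match is a run of letters and not a tested binding site. The stretches of 60 bases around the matches are given below to show where the core lies and that it recurs in some of them. They run 5′ to 3′ on the strand of the gene, with the core in capitals.
Ifit1: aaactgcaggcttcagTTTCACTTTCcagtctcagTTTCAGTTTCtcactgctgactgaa
Ifit3: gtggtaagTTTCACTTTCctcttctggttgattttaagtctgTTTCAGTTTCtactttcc
Isg15: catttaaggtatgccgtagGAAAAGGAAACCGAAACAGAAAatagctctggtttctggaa
Oas1a: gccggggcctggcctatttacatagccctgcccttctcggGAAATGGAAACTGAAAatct
Bst2: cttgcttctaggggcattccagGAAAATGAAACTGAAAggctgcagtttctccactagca
Rsad2: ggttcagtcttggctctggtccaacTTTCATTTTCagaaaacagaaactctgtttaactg
Gbp2: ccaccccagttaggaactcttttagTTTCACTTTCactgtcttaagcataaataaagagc
Gbp3: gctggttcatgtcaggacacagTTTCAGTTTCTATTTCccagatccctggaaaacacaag
Stat2: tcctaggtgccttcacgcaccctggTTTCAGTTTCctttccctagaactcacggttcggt
The *Isg15* stretch (chr4:156200856-156200915, minus strand) holds 3 overlapping cores that begin at positions -78, -72, and -66 relative to the start site, and *Ifit1* (chr19:34640769-34640828, plus strand) and *Ifit3* (chr19:34583365-34583424, plus strand) hold 2 separate cores each. *Oas1a* (chr5:120907526-120907585, minus), *Bst2* (chr8:71537565-71537624, minus), and *Gbp3* (chr3:142559977-142560036, plus) hold 2 overlapping cores each. *Rsad2* (chr12:26456538-26456597, minus), *Gbp2* (chr3:142620579-142620638, plus), and *Stat2* (chr10:128270251-128270310, plus) hold 1 core each.

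The 32 genes differed by orders of magnitude between libraries and moved together. Their mean log2(RPKM + 1) was highest in K36M D7 (6.19), followed by WT D7 (5.41), WT D0 (5.12), K36M D0 (4.60), and PPARγ WT Rosi (4.48). PPARγ K36M Rosi (3.82) and Ctrl D0 (3.69) came next, and PPARγ K36M DMSO, PPARγ WT DMSO, K36M D2, and Ctrl D2 lay between 2.49 and 2.81. The lowest were Nsd2 KD D2 (1.67), WT D2 (1.51), and Nsd2 KD D0 (1.50). With 1 library per condition, the spread that would tell neighbours in this order apart is unknown. The same mean over all 11899 genes with a mean RPKM of at least 1 stayed between 3.22 and 3.63. In K36M D7 all 32 genes were at 10 RPKM or more, whereas in WT D2 20 of 32 were below 1 RPKM. K36M D7 was the highest of the 14 libraries for 30 genes, the exceptions being *Mx2* (14.3 RPKM in WT D7) and *Gbp2* (54.4 RPKM in WT D0). The lowest library was Nsd2 KD D0 for 13 genes, WT D2 for 12, and Nsd2 KD D2 for 7.

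**Figure D1:**
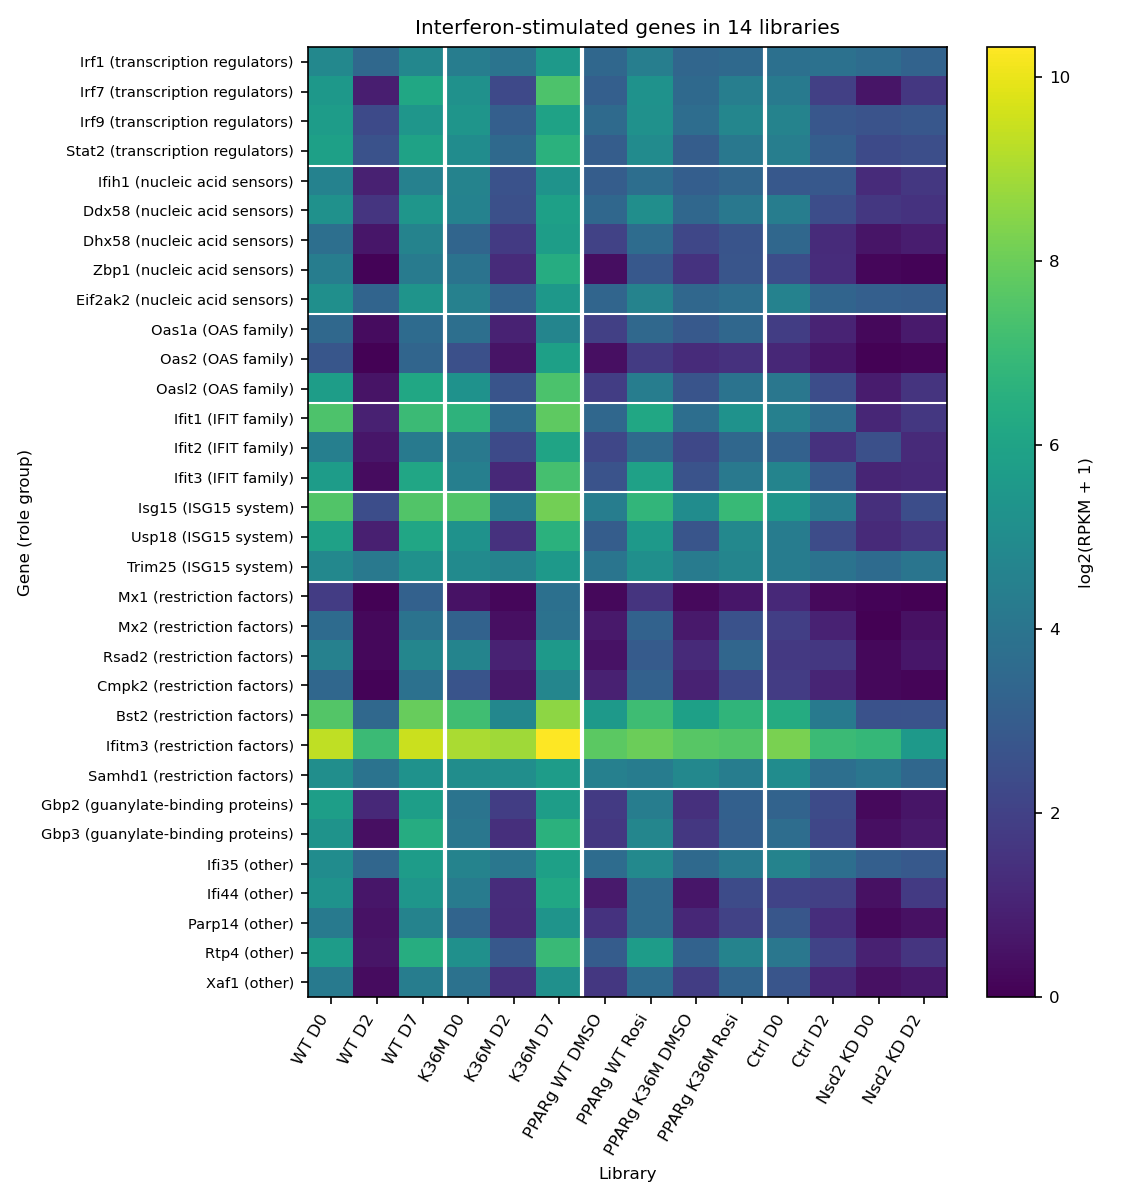
Level of each of the 32 genes (rows, by role group) in each of the 14 libraries (columns), as log2(RPKM + 1), dark for low and yellow for high. The columns WT D2, Nsd2 KD D0, and Nsd2 KD D2 are dark for most genes, K36M D7 is the brightest for 30 of 32, and the row of Ifitm3 is bright throughout.

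Across the 14 libraries each gene's log2(RPKM + 1) followed the mean of the other 31 with a Pearson correlation of 0.78 (*Samhd1*) to 0.99 (*Xaf1*), with a median of 0.97. These points share libraries and controls, and the value is a description. The log2 range over the libraries was largest for *Ifit3* (6.96), *Irf7* (6.85), and *Oasl2* (6.85). It was smallest for *Trim25* (1.94), *Samhd1* (2.24), *Irf1* (2.28), *Eif2ak2* (2.44), and *Ifi35* (3.00). Among 11867 other genes with a mean RPKM of at least 1, the 10 whose pattern was most like the mean of the 32 had correlations of 0.98 to 0.99 over the 14 libraries, against a median of 0.14 over those genes. They were *Oas1b*, *Parp9*, *Trim30a*, *Dtx3l*, *Igtp*, *Phf11d*, *Ifi204*, *Irgm2*, *Helz2*, and 1 transcript without a symbol, and 8 of the 10 were on the list of other interferon-stimulated genes used here.

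From D0 to D2 of adipogenesis the genes were lower in WT cells almost without exception, and from D2 to D7 they were high again. Between D0 and D2, 31 of 32 genes were over 2-fold lower and 0 over 2-fold higher, with a median log2 ratio of -5.42, while of all 17591 genes above 0 in either library 25.2% were over 2-fold lower and 13.6% higher, with a median of -0.08. Among genes with a mean RPKM of at least 1 the share lower was 16.4%. *Trim25*, a ubiquitin ligase that activates RIG-I, was the exception, at 27.5 and 17.2 RPKM. Between D2 and D7, 32 of 32 were over 2-fold higher and 0 lower, with a median of 5.59, against 22.4% and 12.2% of 17205 genes and 14.4% higher among genes with a mean of at least 1. The 2 comparisons share the D2 library, so a low value there enters both. With a pseudocount of 1 the medians were -3.69 and 3.90. At D7 compared with D0, 25 of 32 were higher in WT cells and 2 over 2-fold, with a median log2 ratio of 0.20. For D7 against D0 the share of all genes is not given here. Other gene lists differed between these libraries as well. The summed level of 9 macrophage and leukocyte markers was 3.84, 0.455, and 1.99 RPKM on the 3 days, that of 5 endothelial markers 1.50, 0.343, and 1.07, and that of 9 preadipocyte and mesenchymal markers 863, 143, and 769. Their part in the result was not tested. The induction medium was given for the 2 days before D2, so medium and stage of differentiation cannot be told apart here.

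The IFIT proteins bind foreign RNA ends and block its translation, and *Ifit1* and *Ifit3* were among the 5 genes with the widest range over the libraries. *Ifit1* read 174 RPKM (D0), 0.933 (D2), and 129 (D7) in WT cells, against 101, 11.3, and 217 for K36M cells. *Ifit3* read 51.9 RPKM (D0), 0.262 (D2), and 68.2 (D7) in WT cells, against 21.0, 1.28, and 156 for K36M cells. WT D2 was the lowest and K36M D7 the highest of these libraries for both. The log2 ratio of *Ifit1* from D0 to D2 in WT cells was -7.54, with a 95% Clopper-Pearson interval of -7.99 to -7.13 on the reads of the 2 libraries. These intervals cover counting error only. *Ifit2* was lower at D2 as well, at 21.1 and 0.557 RPKM, with a ratio of -5.24, near the median of the 32.

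The OAS enzymes make 2′-5′ oligoadenylates that activate RNase L. *Oasl2* read 52.6 RPKM (D0), 0.467 (D2), and 70.5 (D7) in WT cells, against 37.1, 5.47, and 169 for K36M cells. *Oas2* read 5.75 RPKM (D0), 0.0542 (D2), and 9.38 (D7) in WT cells, against 4.67, 0.475, and 57.1 for K36M cells. *Oas2* passed 10 RPKM in K36M D7 and in no other library of the 14. *Oas1a* had a narrower range, from 0.277 RPKM in WT D2 to 24.6 in K36M D7 among these 6 libraries.

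ISG15 is a ubiquitin-like modifier and USP18 removes it from proteins. *Isg15* read 181 RPKM (D0), 4.43 (D2), and 184 (D7) in WT cells, against 185, 19.2, and 282 for K36M cells. *Usp18* read 59.6 RPKM (D0), 0.857 (D2), and 67.9 (D7) in WT cells, against 37.5, 1.80, and 95.1 for K36M cells. Both genes were lowest at D2 in WT and in K36M cells, and the 2 kinds of cells were within 2-fold of each other for both genes at D0 and at D7.

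The transcription regulators, which carry the interferon signal to these genes, were lower at D2 too, with a smaller median ratio than the IFIT family (-3.60 for the 4 regulators against -7.54 for the 3 IFIT genes, as median log2 ratios in WT cells). *Irf7* read 44.3 RPKM (D0), 0.830 (D2), and 69.3 (D7) in WT cells, against 36.4, 3.84, and 171 for K36M cells. *Irf9* read 51.7 RPKM (D0), 3.95 (D2), and 41.6 (D7) in WT cells, against 40.6, 7.63, and 60.7 for K36M cells. *Stat2* read 57.8 RPKM (D0), 5.11 (D2), and 60.8 (D7) in WT cells, against 31.6, 10.5, and 96.4 for K36M cells. IRF7, which drives interferon production after sensing of nucleic acid, had the largest ratio of the 4, and IRF9 and STAT2 kept several RPKM at D2. *Irf1* read 27.1 RPKM (D0), 10.3 (D2), and 26.3 (D7) in WT cells, against 20.0, 14.9, and 45.9 for K36M cells. IRF1 thus stayed within 3-fold of its D0 level at D2 in WT cells, at a log2 ratio of -1.40.

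Among the sensors of foreign nucleic acid, *Zbp1*, whose product binds Z-form nucleic acid, had the largest ratio of the 32 from D0 to D2 in WT cells, at a log2 ratio of -8.19 (-13.49 to -5.70). *Zbp1* read 19.5 RPKM (D0), 0.0670 (D2), and 18.5 (D7) in WT cells, against 14.3, 1.43, and 83.6 for K36M cells. The RNA helicase genes *Ifih1* (MDA5), *Ddx58* (RIG-I), and *Dhx58* (LGP2) had log2 ratios of -4.65, -4.18, and -4.47 in WT cells, and *Eif2ak2*, the RNA-dependent kinase PKR, had -1.91. All 5 sensors were over 2-fold higher again at D7 in WT cells.

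Restriction factors and the remaining genes followed the same course. *Bst2* read 187 RPKM (D0), 10.1 (D2), and 243 (D7) in WT cells, against 144, 26.2, and 378 for K36M cells. BST2 (tetherin) holds budding virus at the cell surface, and its gene kept over 10 RPKM even in WT D2. *Gbp3* read 38.7 RPKM (D0), 0.337 (D2), and 83.6 (D7) in WT cells, against 16.0, 1.63, and 95.7 for K36M cells. The neighbouring *Gbp2* had 54.4, 1.26, and 53.7 RPKM in WT cells. *Rtp4* read 52.0 RPKM (D0), 0.499 (D2), and 85.8 (D7) in WT cells, against 35.3, 6.19, and 127 for K36M cells. *Ifi44* read 36.9 RPKM (D0), 0.558 (D2), and 42.5 (D7) in WT cells, against 18.8, 1.45, and 69.6 for K36M cells. At D2 both were below 1 RPKM in WT cells and above it in K36M cells. The log2 ratios from D0 to D2 in WT cells were -6.96 for *Rsad2* (viperin), -7.22 for its neighbour *Cmpk2*, -6.08 for *Mx1*, -6.02 for *Mx2*, -5.41 for *Parp14*, and -6.09 for *Xaf1*. *Mx1* rested on 151 reads at D0 and 2 at D2. The abundant *Ifitm3*, which blocks viral entry, read 646, 131, and 733 RPKM, *Samhd1*, a dNTP hydrolase, read 33.5, 14.1, and 37.5, and *Ifi35* read 31.1, 9.74, and 51.9. These were smaller differences than those of most members, and each was still over 2-fold.

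**Figure D2:**
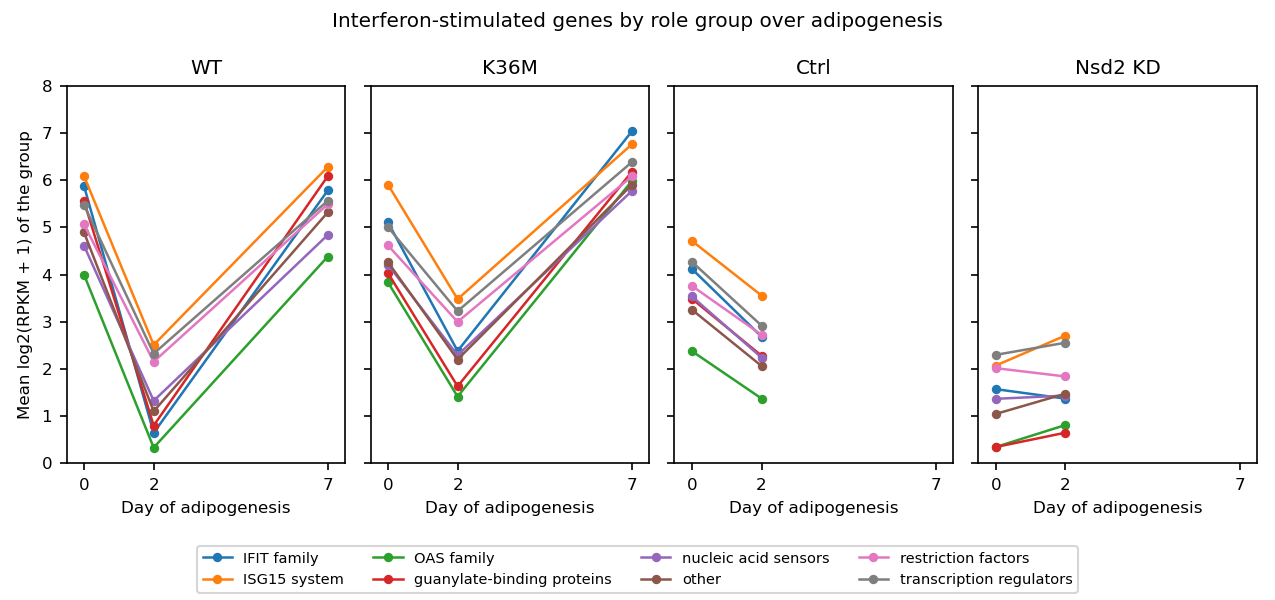
Mean log2(RPKM + 1) of each role group (lines) by day of adipogenesis in WT, K36M, Ctrl, and Nsd2 KD cells, with 1 library per point. All 8 groups are lowest at D2 in WT and K36M cells, the D2 points of K36M cells lie above those of WT cells, and the groups of Nsd2 KD cells start low at D0.

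K36M cells followed the same course with a shallower low point at D2. From D0 to D2, 27 of 32 genes were over 2-fold lower and 0 higher (median -2.60), against 19.6% and 16.5% of 18196 genes. From D2 to D7, 30 were over 2-fold higher and 0 lower (median 4.35), against 21.5% and 14.9%. The 5 genes within 2-fold between D0 and D2 were *Irf1*, *Ifi35*, *Ifitm3*, *Trim25*, and *Samhd1*. For 32 of 32 genes the D0 to D2 ratio was lower in WT than in K36M cells, by a median of 2.38 on the log2 scale. The share of all genes for which it was lower in WT cells is not given here. At D7 compared with D0, all 32 were higher in K36M cells and 24 over 2-fold, with a median log2 ratio of 1.37. The share of all genes higher at D7 than at D0 is not given here.

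The median ratio of K36M to WT cells was below 1 at D0 and above 1 at D2 and D7. At D0, 0 of 32 genes were over 2-fold higher and 4 lower in K36M cells (median -0.43), against 14.8% and 12% of 17861 genes, whose median was 0.11, so that the share of members lower was near that of all genes. The 4 lower genes were *Ifit3*, *Mx1*, *Gbp2*, and *Gbp3*, with log2 ratios of -1.31, -2.67, -1.88, and -1.28. At D2, 26 were over 2-fold higher in K36M cells and 0 lower (median 1.88), against 22.2% and 9.9% of 17798 genes. With 1 RPKM added to both values the D2 count was 13 and the median 0.88, and 20 of the 32 WT values were below 1 RPKM. *Zbp1* had the largest difference at D2, with 1 read in WT and 14 in K36M cells, so its ratio is poorly fixed (4.42, 1.70 to 9.82). *Ifit1* rested on 47 and 375 reads and had a ratio of 3.60 (3.16 to 4.07). At D7, 8 were over 2-fold higher in K36M cells and 0 lower (median 0.73), against 19.7% and 13.2% of 17217 genes. The share of members higher at D7 (8 of 32) was near that background. The 8 were *Irf7*, *Dhx58*, *Zbp1*, *Oas1a*, *Oas2*, *Oasl2*, *Ifit2*, and *Ifit3*, from 1.14 to 2.61 on the log2 scale, and the 3 OAS genes were among them. The 7 brown adipocyte markers summed to 3567 and 1592 RPKM in WT and K36M cells at D2 and to 3408 and 219 RPKM at D7. At D2 the 9 preadipocyte and mesenchymal markers, like the 32 genes, had a higher sum in K36M cells, at 143 and 324 RPKM in WT and K36M cells (4 higher and 0 lower over 2-fold), and the 9 macrophage and leukocyte markers summed to 0.455 and 1.36 RPKM (3 higher and 1 lower over 2-fold). Of the macrophage and leukocyte genes called, only *Cd14* passed 0.124 RPKM, at 0.385 and 1.12 RPKM. The part of these lists in the differences was not tested.

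The Rosi libraries address how PPARγ-expressing cells respond to the ligand. In WT cells 29 of 32 genes were over 2-fold higher after 24 h with Rosi than with DMSO and 0 lower, with a median log2 ratio of 2.41. Of 19592 genes 17% were higher and 16.2% lower, and of genes with a mean RPKM of at least 1 9.77% were higher. *Ifih1*, *Ifitm3*, and *Samhd1* stayed within 2-fold, at 0.73, 0.28, and -0.16. In K36M cells 19 of 32 were over 2-fold higher and 0 lower (median 1.32), against 18.3% and 15% of 21453 genes. The ratio was larger in WT than in K36M cells for 32 of 32 genes, with a median difference of -1.03 (K36M minus WT) on the log2 scale. This difference between the 2 kinds of cells was not tested, and the share of all genes with a larger ratio in WT cells is not given here. The 7 brown adipocyte markers summed to 213 and 3029 RPKM without and with Rosi in WT cells and to 150.2 and 1219 RPKM in K36M cells, and their part in the result was not tested.

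*Ifit1* read 9.85 (DMSO) and 70.9 RPKM (Rosi) in PPARγ WT cells, against 12.3 and 37.1 RPKM in PPARγ K36M cells. *Ifit3* read 5.32 (DMSO) and 59.0 RPKM (Rosi) in PPARγ WT cells, against 5.30 and 17.3 RPKM in PPARγ K36M cells. *Irf7* read 7.73 (DMSO) and 37.0 RPKM (Rosi) in PPARγ WT cells, against 10.6 and 20.3 RPKM in PPARγ K36M cells. For each of these 3 genes the DMSO libraries were within 2-fold of each other and the WT Rosi library was the highest of the 4. *Isg15* differed, with 20.1 (DMSO) and 111 RPKM (Rosi) in PPARγ WT cells, against 31.3 and 125 RPKM in PPARγ K36M cells, so that its level with Rosi was slightly higher in K36M cells. With Rosi *Rsad2* was also higher in K36M than in WT cells (9.68 and 6.71 RPKM), and *Samhd1* was close (19.7 and 19.4 RPKM). *Oasl2* read 2.70 (DMSO) and 19.9 RPKM (Rosi) in PPARγ WT cells, against 5.35 and 14.5 RPKM in PPARγ K36M cells, and *Oas2* read 0.333 (DMSO) and 2.47 RPKM (Rosi) in PPARγ WT cells, against 1.38 and 1.80 RPKM in PPARγ K36M cells. For both OAS genes the DMSO level was higher in K36M cells and the ratio smaller, down to 0.38 for *Oas2*. *Zbp1* read 0.294 (DMSO) and 6.11 RPKM (Rosi) in PPARγ WT cells, against 1.89 and 5.56 RPKM in PPARγ K36M cells. It had the largest ratio in WT cells (4.38, 3.09 to 6.04).

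The transcription regulators were all over 2-fold higher with Rosi in WT cells. *Stat2* read 7.19 (DMSO) and 30.4 RPKM (Rosi) in PPARγ WT cells, against 7.33 and 16.7 RPKM in PPARγ K36M cells, and *Irf9* read 10.9 (DMSO) and 35.9 RPKM (Rosi) in PPARγ WT cells, against 12.1 and 25.6 RPKM in PPARγ K36M cells. *Irf1* read 9.96 (DMSO) and 20.4 RPKM (Rosi) in PPARγ WT cells, against 9.60 and 10.6 RPKM in PPARγ K36M cells. In K36M cells *Irf1* and *Irf7* were within 2-fold. Of the restriction factors and others, *Bst2* read 45.2 (DMSO) and 137 RPKM (Rosi) in PPARγ WT cells, against 56.8 and 108 RPKM in PPARγ K36M cells, and *Gbp3* read 2.23 (DMSO) and 25.5 RPKM (Rosi) in PPARγ WT cells, against 2.19 and 7.81 RPKM in PPARγ K36M cells. *Usp18* read 7.37 (DMSO) and 46.7 RPKM (Rosi) in PPARγ WT cells, against 5.58 and 27.1 RPKM in PPARγ K36M cells, and *Rtp4* read 7.07 (DMSO) and 50.8 RPKM (Rosi) in PPARγ WT cells, against 8.61 and 23.8 RPKM in PPARγ K36M cells. *Ifi44* read 0.696 (DMSO) and 10.8 RPKM (Rosi) in PPARγ WT cells, against 0.550 and 4.16 RPKM in PPARγ K36M cells. The Rosi level was lower in K36M than in WT cells for each of these 5 genes.

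**Figure D3:**
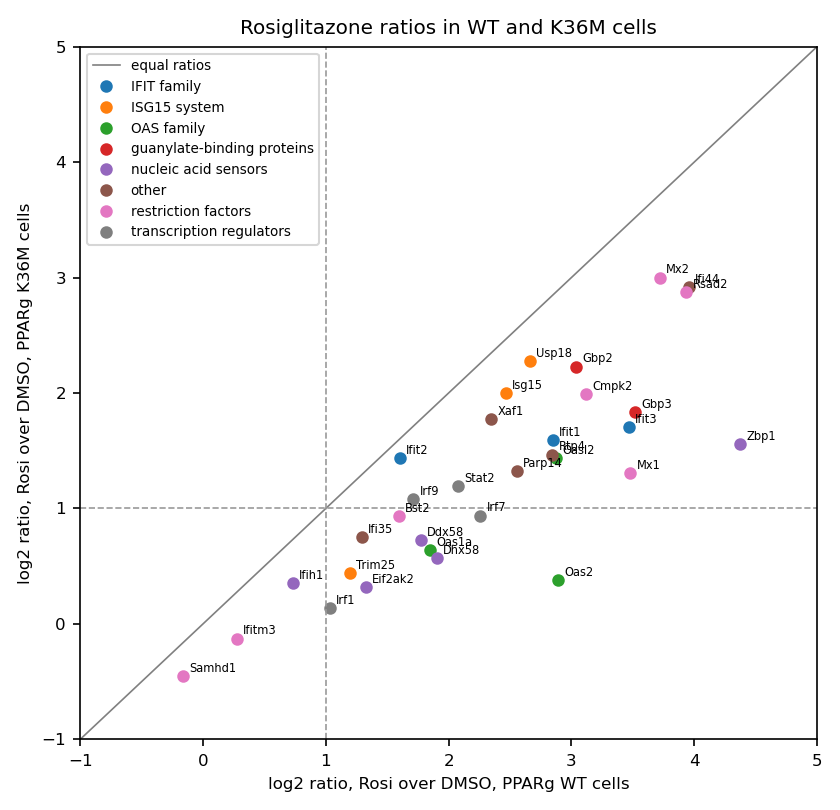
Log2 ratio of RPKM with Rosi over DMSO for each of the 32 genes in PPARγ WT cells (horizontal) and PPARγ K36M cells (vertical), coloured by role group, with dashed lines at 2-fold and a solid line at equal ratios. All 32 points lie below the line of equal ratios, and Samhd1 and Ifitm3 lie near or below 0 on both axes.

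Without ligand the K36M and WT cells with PPARγ were close, with 4 genes over 2-fold higher in K36M cells and 0 lower (median 0.12), against 23.9% and 8.31% of 20918 genes. The 4 were *Zbp1* (2.68), *Oas1a* (1.16), *Oas2* (2.05), and *Rsad2* (1.60). With Rosi 0 genes were over 2-fold higher and 10 lower in K36M cells (median -0.75), against 28.4% and 12.6% of 20699 genes, and the share of members lower was thus above that of all genes. With a pseudocount of 1 the 10 lower genes became 6. The Rosi and the K36M comparisons share these 4 libraries.

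Nsd2 KD cells had far lower levels of the genes than Ctrl cells before differentiation. At D0, 29 of 32 were over 2-fold lower in Nsd2 KD cells and 0 higher, with a median log2 ratio of -3.99, against 18.1% and 13.5% of 17216 genes and 11% lower among those with a mean RPKM of at least 1. *Ifit2*, *Irf1*, and *Trim25* were the 3 within 2-fold, at -0.80, -0.18, and -0.79. At D2, 19 were lower and 0 higher (median -1.22), against 18.5% and 12% of 17209 genes, and with a pseudocount of 1 the count was 10. With that pseudocount the medians were -2.04 at D0 and -0.68 at D2. Other gene lists differed between the same libraries. The 9 preadipocyte and mesenchymal markers summed to 2017 and 537 RPKM in Ctrl and Nsd2 KD cells at D0 (3 higher and 5 lower over 2-fold) and to 274 and 70.0 RPKM at D2 (2 higher and 6 lower over 2-fold), so that this sum, like the 32 genes, was lower in Nsd2 KD cells. At D0 *Col1a1* alone read 1678 and 263 RPKM, while the 3 higher genes were *Cd34*, *Dlk1* (38.1 and 171 RPKM), and *Zic1*. The 7 brown adipocyte markers summed to 42.2 and 33.9 RPKM at D0 and 1402 and 57.1 RPKM at D2. The 9 macrophage and leukocyte markers gave 2 higher and 5 lower over 2-fold at D0, while *Cd14*, which made up most of their sum, was higher (2.47 and 7.97 RPKM). Apart from *Cd14* and *Csf1r* (0.666 and 0.296 RPKM), the genes called were near 0, at or below 0.144 RPKM in both libraries. The part of these lists in the result was not tested.

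*Isg15* read 42.6 and 1.59 RPKM in Ctrl and Nsd2 KD cells at D0, and 19.0 and 4.49 at D2. Its log2 ratio at D0 was -4.74 (-5.44 to -4.11). *Ifit1* read 21.8 and 1.17 RPKM in Ctrl and Nsd2 KD cells at D0, and 11.5 and 2.23 at D2, and *Ifit3* read 24.3 and 1.12 RPKM in Ctrl and Nsd2 KD cells at D0, and 6.63 and 1.28 at D2. For these 3 genes Ctrl D0 was the highest of the 4 libraries, and both Nsd2 KD libraries lay below both Ctrl libraries. *Irf7* read 17.7 and 0.487 RPKM in Ctrl and Nsd2 KD cells at D0, and 2.87 and 2.18 at D2. *Irf9* read 23.8 and 5.19 RPKM in Ctrl and Nsd2 KD cells at D0, and 6.01 and 5.97 at D2, and *Stat2* read 20.3 and 4.05 RPKM in Ctrl and Nsd2 KD cells at D0, and 7.38 and 4.54 at D2. Both genes were thus at similar levels in Nsd2 KD cells on both days. *Irf1* stood apart from the other regulators with 13.0 and 11.5 RPKM in Ctrl and Nsd2 KD cells at D0, and 13.3 and 8.69 at D2.

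*Bst2* read 79.8 and 5.09 RPKM in Ctrl and Nsd2 KD cells at D0, and 18.1 and 5.17 at D2, and *Gbp3* read 11.9 and 0.326 RPKM in Ctrl and Nsd2 KD cells at D0, and 3.57 and 0.622 at D2. *Oasl2* read 16.0 and 0.714 RPKM in Ctrl and Nsd2 KD cells at D0, and 4.49 and 1.97 at D2, and *Oas2* read 1.23 and 0.0297 RPKM in Ctrl and Nsd2 KD cells at D0, and 0.552 and 0.0879 at D2. *Usp18* read 19.3 and 1.33 RPKM in Ctrl and Nsd2 KD cells at D0, and 4.34 and 2.14 at D2. These 5 genes had their highest level of the 4 libraries in Ctrl D0. *Rtp4* read 16.0 and 0.912 RPKM in Ctrl and Nsd2 KD cells at D0, and 3.28 and 2.02 at D2, and *Zbp1* read 4.41 and 0.147 RPKM in Ctrl and Nsd2 KD cells at D0, and 1.46 and 0.0725 at D2. *Ifi44* read 3.17 and 0.375 RPKM in Ctrl and Nsd2 KD cells at D0, and 2.90 and 2.38 at D2, so that at D2 the 2 kinds of cells were within 2-fold. *Gbp2* had the largest ratio at D0 among genes above 0 in both libraries (-5.38, -6.52 to -4.44). *Mx2* had 0 reads in Nsd2 KD D0 and 131 in Ctrl D0, which is at least 38.5-fold lower with the floor set at 3 reads in the library. *Mx1* had 0 reads in Nsd2 KD D2 and 10 in Ctrl D2, at least 2.92-fold lower at the same floor. The medians above are the same with these genes set at their bounds.

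The course from D0 to D2 differed between the 2 kinds of cells. In Ctrl cells 25 of 32 genes were over 2-fold lower and 0 higher (median -1.47), against 23.4% and 17.3% of 17473 genes. In Nsd2 KD cells 11 were higher and 4 lower (median 0.62), against 16.9% and 24.5% of 17086 genes, and 17 stayed within 2-fold. Among genes above 0 in both libraries the highest ratio was 2.66 (*Ifi44*) and the lowest -1.81 (*Ifit2*). For 21 genes the ratio was below 1 in Ctrl and above 1 in Nsd2 KD cells, and the share of all genes with this pattern is not given here. With a pseudocount of 1 only 5 of the genes passed 2-fold in Nsd2 KD cells, in either direction.

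The 2 kinds of control cells, which carried retroviral WT H3.3 or the lentiviral Ctrl shRNA, also differed from each other. At D0, 26 of 32 genes were over 2-fold lower in Ctrl than in WT cells and 0 higher (median -1.63), against 23% and 12% of 17623 genes and 14.5% lower among those with a mean RPKM of at least 1. The median of all genes was -0.28. At D2, 23 of 32 were higher in Ctrl than in WT cells and 0 lower (median 1.99), against 12.2% and 15.6% of 17476 genes. Of the 32 genes, 29 were lower in Ctrl at D0 and higher at D2, and the share of all genes that did so is not given here. *Ifit1*, for example, had 174 and 21.8 RPKM at D0 in WT and Ctrl cells, and 0.933 and 11.5 at D2. *Samhd1* was at a close level in both at D0 (33.5 and 31.8 RPKM) and *Ifi44* had the largest difference (-3.54). With a pseudocount of 1 the D2 count was 13. The 9 preadipocyte and mesenchymal markers gave 2 higher and 1 lower over 2-fold at D0 and 2 higher and 1 lower over 2-fold at D2, and the 7 brown adipocyte markers 2 higher and 3 lower over 2-fold and 0 higher and 4 lower over 2-fold.

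The WT cells with a second retrovirus for PPARγ, given DMSO, also had lower levels than the WT cells at D0. Of 32 genes 30 were over 2-fold lower and 0 higher (median -3.01), against 26.1% and 19.8% of 19205 genes. *Zbp1* had the largest ratio (-6.05), and *Trim25* and *Samhd1* were within 2-fold. The 9 preadipocyte and mesenchymal markers gave 0 higher and 6 lower over 2-fold (median -1.43), and the 7 brown adipocyte markers 5 higher and 0 lower over 2-fold (median 2.20), and their part in the result was not tested. The 5 included *Pparg* itself, the gene of the second virus (13.4 and 60.2 RPKM in WT D0 and PPARγ WT DMSO). They also included *Cidea*, at 0 and 0.0395 RPKM, and the rest were *Cebpa*, *Fabp4*, and *Plin1*. *Adipoq* was within 2-fold, at 1.56 and 1.46 RPKM. The second virus, its insert, hygromycin selection, the density of the cells, DMSO, and the experiment cannot be told apart here. In the comparison of Ctrl with WT cells, both of which were selected with puromycin, the kind of vector, its insert, and the experiment cannot be told apart. These comparisons share WT D0 and WT D2 with those above.

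**Figure D4:**
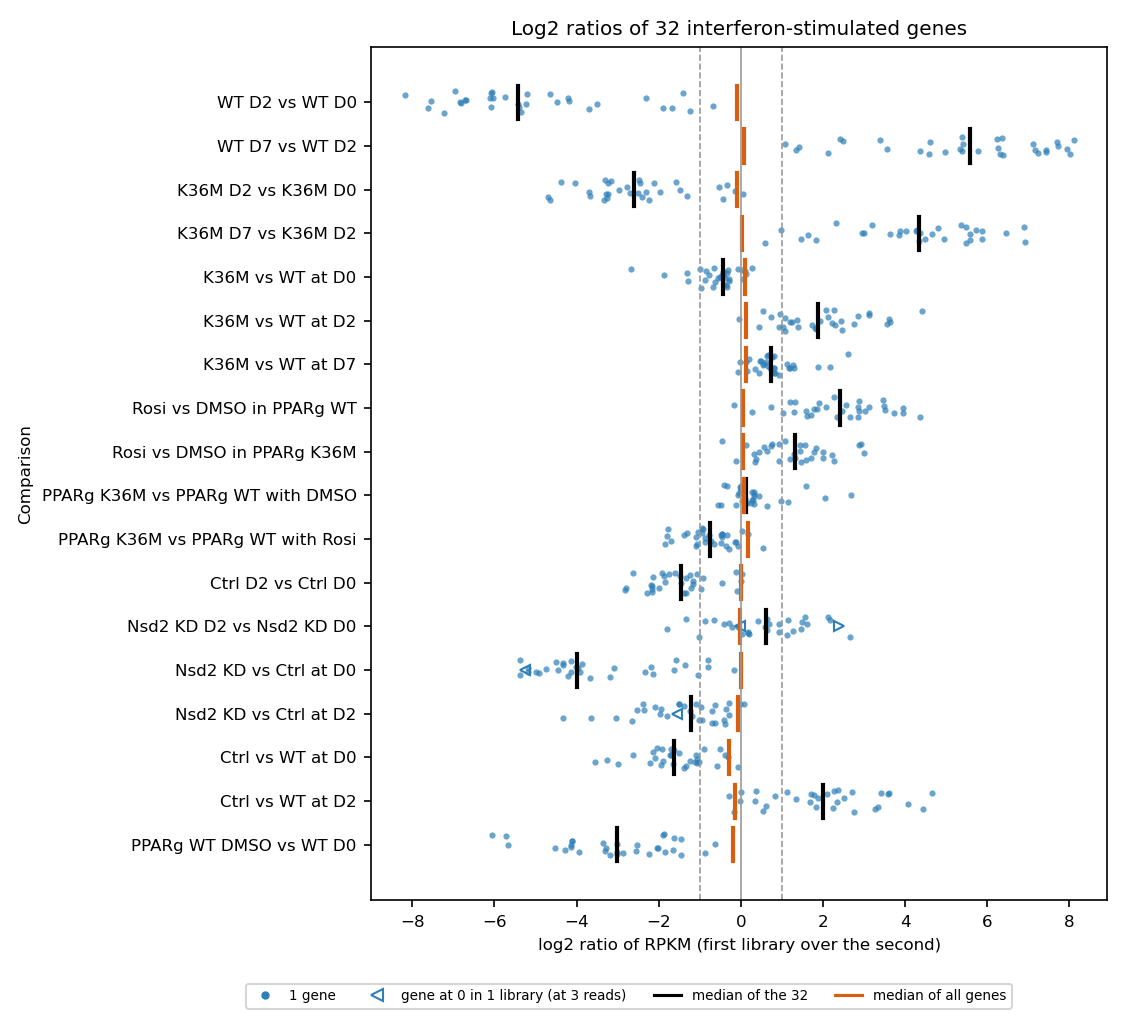
Log2 ratio of RPKM of the 32 genes (points) in each of the 18 comparisons (rows), with the median of the 32 (black) and of all genes above 0 (orange), and dashed lines at 2-fold. Triangles mark Mx1 or Mx2 with 0 reads in 1 library, drawn at 3 reads. The medians of the 32 reach -5.42 for WT D2 over WT D0, 2.41 for Rosi over DMSO in WT cells, and -3.99 for Nsd2 KD over Ctrl at D0, while those of all genes lie between -0.28 and 0.16.

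The interferon genes themselves were at or near 0 in every library. None of 19 listed interferon genes passed 0.407 RPKM, and their summed level ran from 0 to 2.07 RPKM. The interferon α genes are near-identical short genes, so reads may be split between them. The type I receptor genes were present throughout, *Ifnar1* at 5.53 to 14.8 RPKM and *Ifnar2* at 9.40 to 30.1 RPKM. The 6 receptor genes gave 0 higher and 3 lower by over 2-fold at D2 against D0 of WT cells, against 13.6% and 25.2% of all genes. In Nsd2 KD against Ctrl cells at D0 they gave 1 higher and 1 lower, against 13.5% and 18.1%. The 3 lower in WT cells were *Ifnar2* (log2 ratio -1.45), *Il10rb* (-1.93), and *Ifnlr1*. In Nsd2 KD against Ctrl cells *Ifngr1* was the 1 lower (-1.46) and *Ifnlr1* the 1 higher. *Ifnlr1* did not pass 0.715 RPKM in any library. Its counting interval included no change in WT cells (-3.51 to 0.30) but not in Nsd2 KD against Ctrl cells (2.02 to 4.75). *Jak2*, a kinase of the interferon γ receptor, had log2 ratios of -1.39 at D2 against D0 of WT cells and -2.01 at D0 in Nsd2 KD against Ctrl cells. The kinases of the type I receptor were within 2-fold in both comparisons, *Jak1* at -0.75 and -0.68 and *Tyk2* at -0.63 and 0.61.

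Of 19 upstream sensors and adaptors the counts over 2-fold were 1 higher and 7 lower from D0 to D2 in WT cells, 8 higher and 0 lower from D2 to D7, 1 higher and 3 lower with Rosi in WT cells, and 1 higher and 3 lower in Nsd2 KD against Ctrl cells at D0, with medians of -0.62, 0.42, 0.22, and -0.16. The shares lower with Rosi and in Nsd2 KD cells were near those of all genes (16.2% and 18.1%), while 25.2% of all genes were lower in the first comparison and 22.4% higher in the second. Some calls rested on genes near 0, since *Irf8*, *Tlr7*, and *Tlr9* did not pass 0.281, 0.328, and 0.0946 RPKM in any library. *Irf8* was the 1 higher from D0 to D2, *Tlr7* was among the 7 lower, and *Tlr9* was the 1 higher in Nsd2 KD cells. *Irf8* and *Tlr7* were also among the 8 higher from D2 to D7 and the 3 lower with Rosi. *Tlr3*, a receptor for double-stranded RNA, read 4.21, 0.218, and 6.02 RPKM in WT cells and 15.4 in K36M D7. *Sting1*, the adaptor of the DNA sensor cGAS, read 8.71, 1.30, and 5.90, while *Cgas* read 9.60, 10.7, and 8.67. Of 9 inhibitors the counts were 0 higher and 5 lower, 5 higher and 0 lower, 2 higher and 0 lower, and 1 higher and 3 lower in the same 4 comparisons, and *Socs1*, which blocks JAK kinases, read 7.59, 1.89, and 6.53 RPKM in WT cells. *Ptpn6*, which did not pass 0.952 RPKM in any library, was among the 5 lower and was the 1 higher in Nsd2 KD cells.

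A list of 52 other interferon-stimulated genes found in the files had medians of the same sign as the 32 genes in the comparisons given here. At D2 against D0 of WT cells the list gave 0 higher and 48 lower by over 2-fold (median -3.83), against 13.6% and 25.2% of all genes. From D2 to D7 it gave 51 higher and 0 lower (median 4.50), against 22.4% and 12.2%. K36M against WT at D2 gave 33 higher and 0 lower (median 1.53), against 22.2% and 9.9% of all genes. Rosi gave 39 higher and 0 lower in WT cells (median 1.85), against 17% and 16.2%. In K36M cells Rosi gave 20 higher and 2 lower (median 0.84), against 18.3% and 15%. Nsd2 KD against Ctrl gave 0 higher and 40 lower at D0 (median -2.81), against 13.5% and 18.1% of all genes. Ctrl against WT gave 2 higher and 32 lower at D0 (median -1.24), against 12% and 23%. At D2 it gave 26 higher and 4 lower (median 1.00), against 12.2% and 15.6%. The list and the 32 genes were read in the same libraries and are not independent of each other.

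The 9 genes with the response element core in the window and the 15 without it had medians of the same sign in 17 of 18 comparisons, and in 16 of these the median was larger in size with the core. The exceptions were D2 against D0 in Nsd2 KD cells (0.93 with and -0.06 without) and K36M against WT at D7 (0.66 and 0.80). The median log2 ratio was -5.43 with and -4.18 without the core at D2 against D0 of WT cells, 2.85 and 1.60 for Rosi against DMSO in WT cells, and -4.21 and -2.14 in Nsd2 KD against Ctrl cells at D0. The ranges of both groups overlapped in 18 of 18 comparisons. The comparisons share libraries and genes, so these counts are a description and not separate observations. *Oasl2* and *Ifi44*, without the core in this window, had ratios of -6.82 and -6.05 at D2 against D0 of WT cells, and *Trim25* and *Samhd1*, also without it, had -0.68 and -1.24. The 15 genes without it also included *Irf1*, *Eif2ak2*, and *Ifi35*, which like *Trim25* and *Samhd1* had the smallest ranges over the libraries. The 8 genes whose windows were not used are in neither group. Their ratios in the same comparison ran from -8.19 (*Zbp1*) to -4.47 (*Dhx58*).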

How the data were processed

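The RNA-Seq libraries were made from poly(A) RNA purified with Dynabeads, prepared with NEBNext Ultra II, and read on an Illumina HiSeq instrument. As deposited by the authors, the values are RPKM for 29082 RefSeq transcripts per library. The submitters' processing notes name CASAVA 1.8.2, SICER, and mm9, and the RNA-Seq mapper, counter, and any low-value filter are not given in the sources used here. A symbol was found for 28436 transcripts in RefSeq (GRCm38.p6 table), and unmatched transcripts kept their identifier. The ChIP-Seq samples were not analysed here, and the kinase and STAT genes of the pathway are not reported as a list. Values of 1 transcript stood in ratios of whole numbers, which gave its reads: 26936 of 26946 transcripts detected more than once were solved, within 4.9e-07 of whole numbers, and they served for the counting intervals and floors only, since no replicate exists to fit a count model.

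A gene above 0 in at least 1 of 2 libraries was called at a ratio of RPKM over 2-fold, with no pseudocount, in 18 comparisons. Each ratio has a 95% interval from the Clopper-Pearson bounds on how its reads split between both libraries, corrected for depth, which covers counting error only. The alternatives were a pseudocount of 1, rescaling by the median ratio of genes above 0 in both libraries, RPKM summed over the transcripts of a gene, a call that also needs the interval to exclude no change, and a mean RPKM of at least 1. All 32 genes were named, those with the widest range and the transcription regulators with all values, and other genes only from fixed lists or by likeness. The genes and lists were chosen with earlier results of these data known. Recovery, calls, and intervals were tested on simulated data. Python 3.11.15, pandas 2.3.3, NumPy 2.4.6, SciPy 1.17.1, and matplotlib 3.10.9 were used.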

Additional observations from a re-analysis of the deposited data

Results flagged for a closer look

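In 4 pairs of conditions the median log2 ratio of the 32 genes had opposite signs under the same contrast, and with 1 library per condition the difference was not tested. Ctrl against WT cells gave -1.63 at D0 and 1.99 at D2, and 29 of 32 genes changed sign that way. K36M against WT cells gave -0.43 at D0 and 1.88 at D2, with 26 of 32 changing sign, and both pairs share the WT D0 and WT D2 libraries. PPARγ K36M against PPARγ WT cells gave 0.12 with DMSO and -0.75 with Rosi, with 19 of 32 changing sign. D2 against D0 gave -1.47 in Ctrl and 0.62 in Nsd2 KD cells, with 21 of 32 changing sign that way. The shares of all genes that changed sign are not given here. Some of the ratios that changed sign lay near 0, such as those of *Ddx58* (0.002) and *Ifih1* (0.015) between PPARγ K36M and PPARγ WT cells with DMSO.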

How the results depend on the processing

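With a pseudocount of 1 the number of the 32 genes over 2-fold in either direction moved by more than 1.5 times in 6 of 18 comparisons. It went to 13 from 26 for K36M against WT at D2, to 1 from 4 and 6 from 10 for PPARγ K36M against PPARγ WT with DMSO and Rosi, to 5 from 15 for D2 against D0 in Nsd2 KD cells, to 10 from 19 for Nsd2 KD against Ctrl at D2, and to 13 from 23 for Ctrl against WT at D2. By construction it shrinks the ratios of genes near or below 1 RPKM. In the other 12 comparisons, and under rescaling by the median ratio, summed transcripts, the counting interval, and the mean RPKM filter in all 18, the counts stayed within 1.5 times. No median changed sign under any of the 5 alternatives, but their size depended on the pseudocount, which moved 14 of 18 by more than 0.1 and shifted medians by -1.70 to 1.95 on the log2 scale, for example from -5.42 to -3.69 for WT D2 against WT D0 and from 1.88 to 0.88 for K36M against WT at D2. Rescaling moved 6 of 18 by more than 0.1, with shifts of -0.13 to 0.32. No paired analysis was possible because each condition has 1 library. Depth limits genes at a few reads, such as *Mx1* in the libraries where it was near 0, and the lack of replicates limits every comparison.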
